A study of Mus musculus with 8 samples.

Results

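The genes described here are 10 genes of fatty acid uptake and oxidation, Fabp3, Cd36, Lpl, Ppara, Ppard, Pparg, Ppargc1a, Cpt1a, Cpt1b and Acadl, chosen by name and read in all 8 libraries of a table that lists 24980 gene symbols. All 10 members passed the filter on low counts, which kept 17582 genes for testing. The libraries come from mouse skeletal myogenic cells in 4 groups with 2 biological replicates each. TF cells were freshly sorted from teratomas and TE cells are their cultured counterpart at passage 8. SF cells are freshly sorted satellite cells of adult muscle, its resident stem cells, and SE cells are satellite cells at passage 8. The teratomas grew from EGFP-labeled E14 mouse embryonic stem cells injected into tibialis anterior muscles of NSG-mdx4Cv mice, a strain without adaptive immunity or dystrophin, after irradiation and cardiotoxin injury of the muscle. The teratoma-derived cells therefore trace to 1 stem cell line, and they were sorted as CD31-, CD45-, α7-integrin+ and VCAM-1+. The strain and age of the mice that gave the satellite cells are not given in the sources used here. The members are compared between fresh and expanded cells of each origin, between origins when fresh and when expanded, and between the culture responses of the origins.

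Muscle cells take up fatty acids that lipoprotein lipase releases from circulating triglyceride, import them through transporters such as CD36, and bind them in the cytosol with fatty acid binding proteins. Carnitine palmitoyltransferase 1 then commits the fatty acids to the mitochondrion, where acyl-CoA dehydrogenases start each turn of beta-oxidation. The nuclear receptors of the PPAR family sense fatty acids and drive many of these genes, with the coactivator encoded by Ppargc1a as a partner. Quiescent satellite cells are known for their use of fatty acids, and proliferating myoblasts for more glycolysis.

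Total estimated counts ranged from 11930961 to 21146632 per library, and the ribosomal RNA precursor Rn45s took 7.99% to 21.3% of them. All 8 markers of satellite cells and myogenic progenitors, among them Pax7, Itga7 and Cdh15, were above 3 counts in every library. Their levels were not constant. By the test given below, Pax7, Myf5 and Vcam1 were lower after expansion in both origins, and Cdh15, Des and Chrna1 were higher. Myod1 and Itga7 were higher after expansion in teratoma-derived cells and did not pass in satellite cells. Markers of other cells were detected in the fresh libraries, including those of teratoma-derived cells sorted as CD31- and CD45-. Pecam1, which encodes CD31, stood at 849 and 84.9 normalized counts in TF, 818 and 1228 in SF, 5.99 and 4.63 in TE and 33.6 and 16.3 in SE. In bulk RNA, fewer cells of a type and less RNA per cell cannot be told apart. Normalized counts are counts divided by a median-ratio size factor, and a gene was called when edgeR's quasi-likelihood test gave a Benjamini-Hochberg adjusted p below 0.05 over all tested genes and a log2 fold change above 0.32 in size, the threshold of the study.

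Expansion changed members of each role in satellite cells, with Fabp3 and Acadl higher and Cd36, Lpl, Ppara and Ppard lower. SE versus SF called 7 of the 10 members, 3 higher and 4 lower, where the same rule called 40.7% of all tested genes (20.9% higher and 19.8% lower). Over all genes that split was 3677 higher and 3475 lower, and it turned to 3064 and 3958 with median-ratio scaling and to 3366 and 4870 with DESeq2. TE versus TF called 3 members, 2 higher and 1 lower, against a background of 26.1% (9.86% higher and 16.2% lower). Lpl fell and Fabp3 rose in both origins. Cd36, Ppara and Ppard passed as lower in SE versus SF and did not pass in TE versus TF, and of these the difference between origins was called for Cd36. The median log2 fold change of the members was -0.69 in TE versus TF and 0.18 in SE versus SF, beside -0.18 and -0.23 over all tested genes. 1 of the higher members in TE versus TF, Cpt1b, is uncertain for a reason given with its values.

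**Figure D1:**
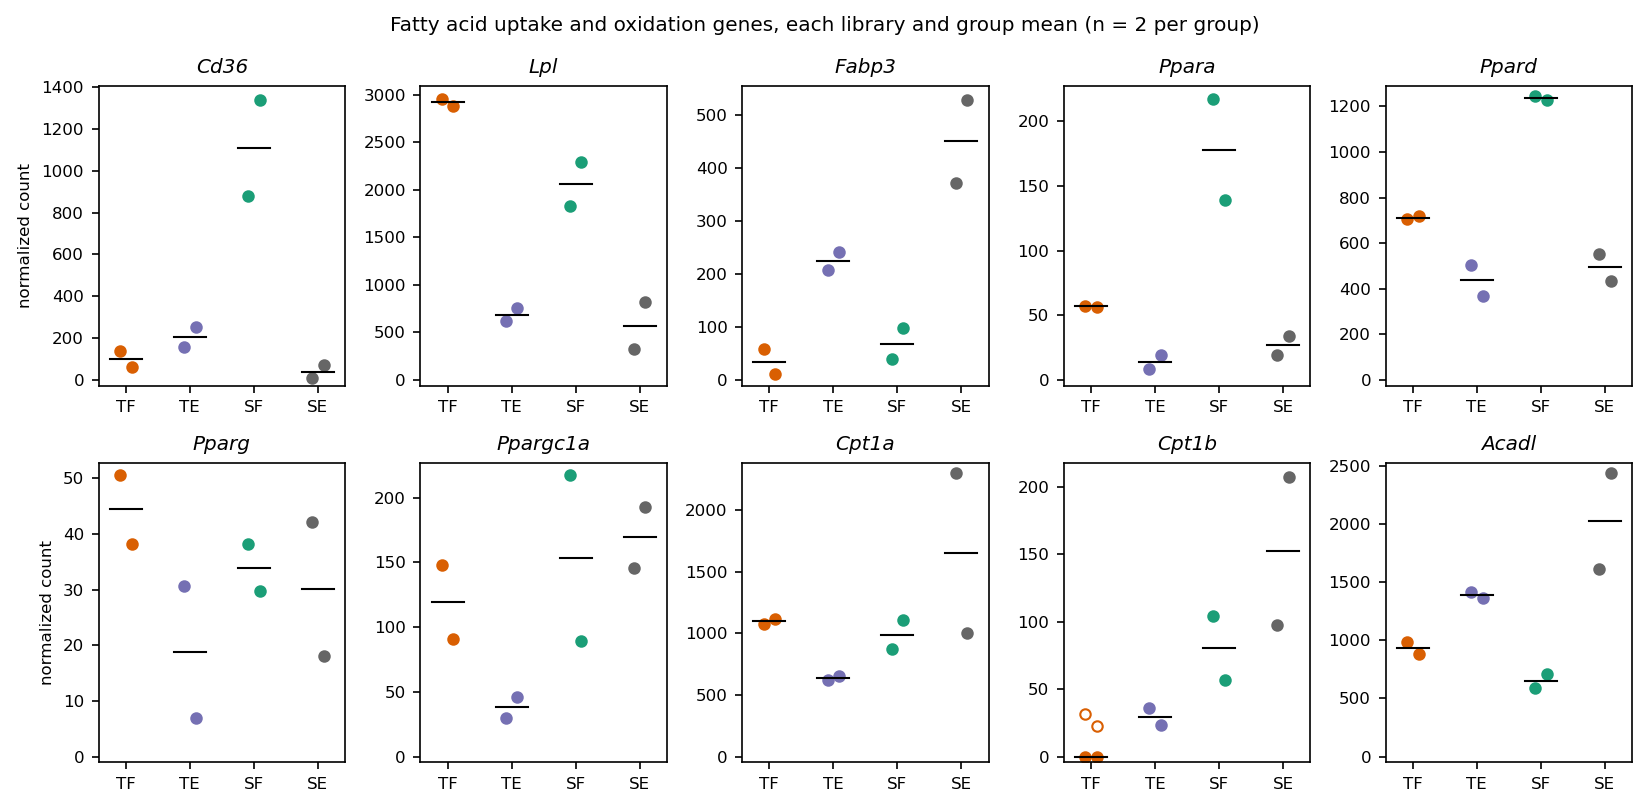
Normalized counts of the 10 members (vertical axis, linear, a scale for each gene) in each library of TF, TE, SF and SE, with points for libraries and bars for means of 2 libraries. Open circles for Cpt1b add the read-through transcript Gm44502, which holds counts in TF only. Cd36 was high in SF at 879 and 1338, Lpl was higher in both fresh groups than in both expanded groups, and Fabp3 was higher in both expanded groups.

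Cd36, Acadl and Cpt1a are shown first because the difference between the origins in their response to expansion was called and a promoter window was at hand. Of these calls, only that of Cd36 held under every alternative. The windows are the bases before the annotated start of transcription, from RefSeq on GRCm38.p6, 5′ to 3′ on the strand of the gene, and capitals mark the nuclear receptor hexamer AGGTCA on either strand and the myogenic E-box CAGCTG. The Cd36 window is chr5:17835897-17836146 on the minus strand, within the span of the gene and outside its exons. The Acadl window is chr1:66863310-66863559 on the minus strand, and the Cpt1a window is chr19:3323051-3323284 on the plus strand, cut where an annotated exon begins. The Cpt1a window also lies within the span of its gene, which begins at 3322334 in GENCODE.
Cd36: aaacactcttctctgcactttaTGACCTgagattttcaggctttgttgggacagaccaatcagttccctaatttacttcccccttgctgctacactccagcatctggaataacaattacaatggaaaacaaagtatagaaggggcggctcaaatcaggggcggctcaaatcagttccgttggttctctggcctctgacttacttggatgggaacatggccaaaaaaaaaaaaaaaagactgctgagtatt
Acadl: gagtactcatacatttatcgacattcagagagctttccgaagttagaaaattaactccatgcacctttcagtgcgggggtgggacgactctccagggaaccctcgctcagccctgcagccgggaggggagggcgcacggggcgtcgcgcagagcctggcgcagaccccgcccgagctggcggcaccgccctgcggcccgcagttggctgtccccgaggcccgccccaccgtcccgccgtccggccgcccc
Cpt1a: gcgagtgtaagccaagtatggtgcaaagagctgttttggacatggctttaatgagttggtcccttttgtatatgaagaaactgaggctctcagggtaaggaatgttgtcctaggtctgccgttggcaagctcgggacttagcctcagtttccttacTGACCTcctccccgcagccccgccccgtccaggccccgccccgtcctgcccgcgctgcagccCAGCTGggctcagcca
The Cd36 window held 1 hexamer, which began at position -228 from the start of transcription. The Cpt1a window held 1 hexamer at -94 and 1 E-box at -32, and the Acadl window held neither. Over 32851 mouse promoter windows of 250 bases, 14.0% held the hexamer and 13% held the E-box, so neither letter string is rare. 8 of the 10 members had a window, and none of their 10 windows held the direct repeat of the hexamer with 1 base between, which PPAR binds together with RXR (0.0335% of all windows), or the MEF2-type box (3.2%).

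Cd36 encodes the main fatty acid translocase of the cell surface and lies at chr5:17781690-17888801 on the minus strand of GRCm38. As a ratio of the highest to the lowest library, it had the widest range of the members with counts in every library. Its normalized counts were 140.2 and 64.0 in TF, 156.5 and 253.6 in TE, 879 and 1338 in SF, and 8.58 and 72.1 in SE. The order of the means was SF, TE, TF and SE, with SF apart from all other libraries and only TF and SE overlapping. In satellite cells with expansion Cd36 fell by 4.61 on the log2 scale (standard error, s.e., 0.825, adjusted p = 0.00183 by edgeR), 27.5-fold between the means. This call held without any one library, but its size rested on the SE libraries, at -3.73 without the first and -6.80 without the second. In teratoma-derived cells the same step gave a log2 fold change of 1.06 (95% interval -0.57 to 2.70, adjusted p = 0.306), which did not pass. It passed with no filter on low counts (adjusted p = 0.0243) and without the first SE library (adjusted p = 0.0498). The difference between these responses was 5.67 on the log2 scale (s.e. 1.09, adjusted p = 0.0081), and it passed under all 15 alternatives, at 4.82 to 7.87.

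Before culture, Cd36 was 10.9-fold lower in TF than in SF (log2 fold change -3.29, adjusted p = 0.0137), and this call was lost without the second TF library (adjusted p = 0.0505). TF versus SF called 2 members, Cd36 and Cpt1b, both lower, against a background of 24.2% (15.1% higher and 9.13% lower). Of all genes called there, 2655 were higher and 1606 lower, a split of 2110 and 1943 with median-ratio scaling. The call of Cpt1b is uncertain for a reason given with its values. After culture, Cd36 did not pass in TE versus SE, at 2.38 on the log2 scale (adjusted p = 0.106). It passed at 4.59 without the second SE library (adjusted p = 0.000453) and with DESeq2 (adjusted p = 0.023).

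Cd36 is also abundant in endothelial cells and macrophages, so the summed levels of their markers are given beside it. The 8 endothelial markers summed to 4888 and 1481 normalized counts in TF, 5520 and 6955 in SF, and 78.6 to 121.8 in the 4 expanded libraries. All 8 were above 3 counts in each fresh library and 3 to 5 of them in each expanded library, where Kdr, Tie1 and Emcn were listed at 0. The 8 blood and macrophage markers summed to 7448 and 645 in TF, 987 and 774 in SF, and 47.2 to 168.2 in the expanded libraries. The summed endothelial markers fell with expansion in both origins. Cd36 was called lower in satellite cells and did not pass in teratoma-derived cells. The part of endothelial cells and macrophages in the Cd36 levels of any group, and in the fall from SF to SE, was not tested.

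**Figure D2:**
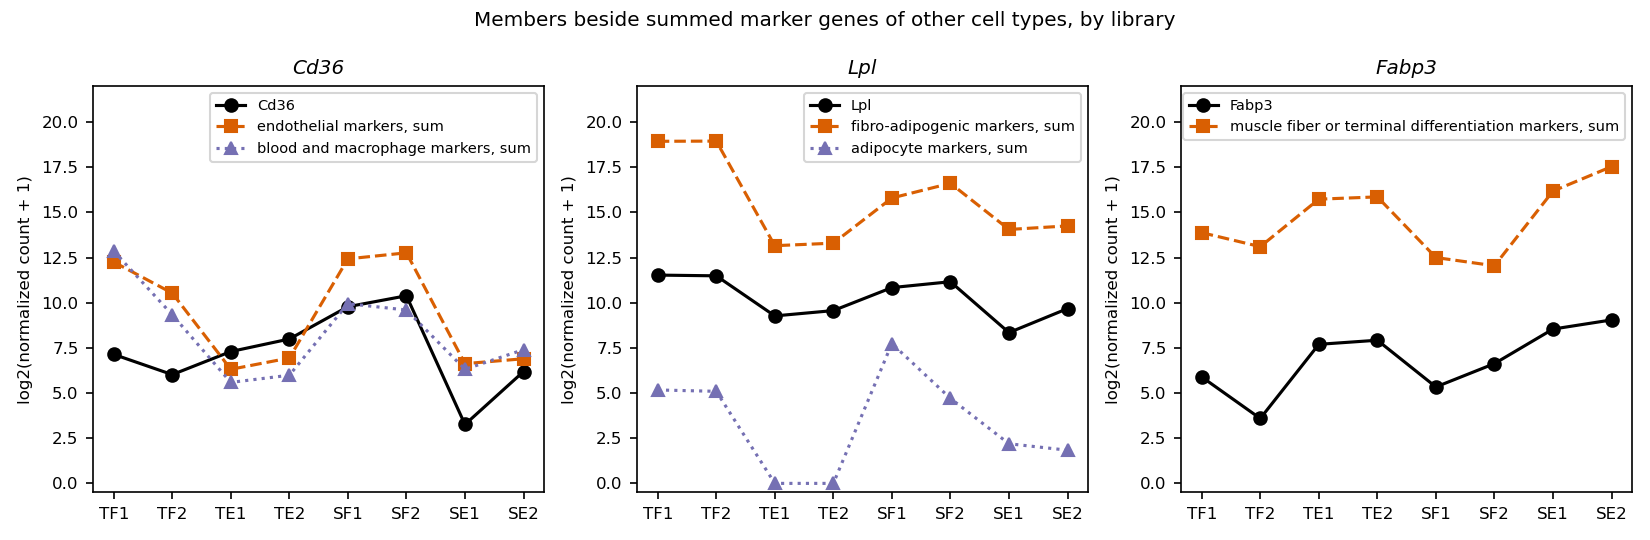
Log2(normalized count + 1) of Cd36, Lpl and Fabp3 in each library (black) beside the summed markers of endothelial, blood and macrophage, fibro-adipogenic, adipocyte or muscle fiber cells (colored). Endothelial sums were lower in the expanded libraries than in the fresh ones. Cd36 stood at 156.5 and 253.6 in TE and at 8.58 and 72.1 in SE. Lpl and Fabp3 moved in the direction of the sums beside them between fresh and expanded libraries. The part of other cell types was not tested.

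Lpl encodes lipoprotein lipase, which frees fatty acids from triglyceride-rich lipoproteins, and lies at chr8:68880491-68907448 on the plus strand. Its normalized counts were 2959 and 2877 in TF, 617 and 757 in TE, 1831 and 2294 in SF, and 324.7 and 817 in SE. Every fresh library was above every expanded library, and TE and SE overlapped. Lpl fell by 2.03 on the log2 scale from TF to TE (s.e. 0.371, adjusted p = 0.00335) and by 1.66 from SF to SE (s.e. 0.367, adjusted p = 0.00567), 4.25-fold and 3.61-fold between means. These calls held without any one library. The responses of the origins gave a log2 difference of -0.37 (95% interval -1.50 to 0.77, adjusted p = 0.71), and neither TF versus SF (0.66, adjusted p = 0.216) nor TE versus SE (0.29, adjusted p = 0.748) passed.

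Lpl is also expressed by fibro-adipogenic cells and adipocytes. The 7 fibro-adipogenic markers summed to 502500 and 506300 normalized counts in TF, 57070 and 100200 in SF, 9147 and 10080 in TE, and 17050 and 19540 in SE. All 7 were above 3 counts in each fresh library and 4 to 6 in each expanded library. Most of each sum came from the collagen genes Col1a1 and Col3a1, at 209400 and 267100 in the first TF library. Col3a1 alone gave 8796 of the 9147 in the first TE library, so the sums mostly follow these 2 genes. The 8 adipocyte markers summed to 25.1 to 212.7 in fresh libraries and to at most 3.58 in expanded ones, where all 8 were listed at 0 in TE. Their part in the fall of Lpl was not tested.

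Fabp3 encodes the heart and muscle fatty acid binding protein, a cytosolic carrier, and lies at chr4:130308595-130315463 on the plus strand. Its normalized counts were 58.4 and 11.1 in TF, 206.7 and 242.1 in TE, 39.5 and 98.1 in SF, and 371.9 and 528.6 in SE. All 4 expanded libraries were above all fresh libraries, both SE libraries were above both TE libraries, and TF and SF overlapped. Fabp3 rose by 2.75 on the log2 scale with expansion of teratoma-derived cells (s.e. 0.708, adjusted p = 0.0184) and by 2.89 in satellite cells (s.e. 0.694, adjusted p = 0.00873), 6.46-fold and 6.55-fold between means. The rise in teratoma-derived cells kept its call without any one library, at 4.40 without the first TF library and 2.03 without the second. The log2 difference between these responses was -0.14 (95% interval -2.28 to 2.00, adjusted p = 0.997). Without the first SF library the rise in satellite cells was 2.37 and missed the threshold (adjusted p = 0.051). In TE versus SE it gave -0.98 (adjusted p = 0.455) and in TF versus SF -0.84 (adjusted p = 0.423), and neither passed.

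Muscle fibers express Fabp3 themselves. The 12 markers of muscle fibers and terminal differentiation summed to 15080 and 8815 normalized counts in TF, 5805 and 4231 in SF, 54520 and 59540 in TE, and 74350 and 190000 in SE. All 12 were above 3 counts in every library. Their sums were higher in all expanded libraries than in any fresh library, as was Fabp3. The markers did not all move alike. Myh2 was called lower in SE versus SF, at 345.2 and 79.8 in SF and 15.7 and 49.8 in SE. Ckm and Myh4 were called in neither origin, and Myh1 gave 29420 and 63990 of the SE sums. The part of these markers in the rise of Fabp3 was not tested. Of the exon bases of Fabp3, 19.6% are shared with the opposite-strand genes Zcchc17 and Gm10570, and a processed pseudogene, Fabp3-ps1, lies on chromosome 10. The strand setting of the counting is not given in the sources used here, so Fabp3 counts may hold some reads of these genes.

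The PPAR receptors fell with expansion of satellite cells, except for Pparg. Ppard, the form found in most tissues and the main one in muscle, had normalized counts of 704 and 721 in TF, 506 and 369.3 in TE, 1245 and 1226 in SF, and 553 and 435.9 in SE. Both SF libraries were above all others, and TE and SE overlapped. Ppard fell by 1.13 on the log2 scale from SF to SE (s.e. 0.23, adjusted p = 0.0037), 2.50-fold between means. In TE versus TF the log2 fold change was -0.65 (95% interval -1.16 to -0.13, adjusted p = 0.0651), which passed with DESeq2 (adjusted p = 0.0362). In TF versus SF it was -0.63 (adjusted p = 0.0718), which passed with median-ratio scaling (adjusted p = 0.0321).

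Ppara, the receptor best known from liver and heart, stood at 57.1 and 56.6 normalized counts in TF, 8.24 and 19.3 in TE, 216.6 and 139.1 in SF, and 19.3 and 34.3 in SE. Both SF libraries were the highest, and all 4 expanded libraries lay below the fresh ones. The fall from SF to SE was 2.53 on the log2 scale (s.e. 0.766, adjusted p = 0.0252), and it was lost without the first SF library (adjusted p = 0.118) or without either SE library (adjusted p = 0.139 and 0.0504). The log2 fold change in TE versus TF was -1.98 (95% interval -3.70 to -0.27, adjusted p = 0.0856) and did not pass. The responses of Ppara and Ppard did not pass as different between origins, with log2 differences of 0.54 (adjusted p = 0.817) and 0.48 (adjusted p = 0.37).

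Pparg, the regulator of fat cell formation, was low everywhere, at 50.6 and 38.1 normalized counts in TF, 30.7 and 6.94 in TE, 38.2 and 29.6 in SF, and 42.2 and 18.0 in SE. Apart from TF and TE, every pair of groups overlapped, and no comparison of Pparg passed. The 95% intervals were wide at this depth, -3.70 to 1.34 in TE versus TF and -2.46 to 2.50 in SE versus SF, so changes of several fold were not detectable. On counts per kilobase of merged exons, which allow levels of different genes to be compared, Ppard made up 70.5% to 87.0% of the summed PPAR level in each library. Ppara made up 24.0% and 17.3% of it in SF and 2.69% to 12.2% in the expanded libraries.

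Ppargc1a encodes PGC-1α, a coactivator of PPARs and of mitochondrial genes. Its normalized counts were 148 and 91.0 in TF, 29.9 and 46.3 in TE, 217.8 and 88.9 in SF, and 145.9 and 193.1 in SE. TE was below all other libraries, and the other groups overlapped one another. No comparison of Ppargc1a passed, with log2 fold changes of -1.59 in TE versus TF (adjusted p = 0.0744) and -2.13 in TE versus SE (95% interval -3.46 to -0.80, adjusted p = 0.0639). DESeq2 called both of these (adjusted p = 0.0435 and 0.0132). In SE versus SF the value was 0.35 (95% interval -0.92 to 1.61, adjusted p = 0.639). The 4 transcription regulators together had 0 calls in TE versus TF by edgeR, with 3 at an unadjusted p below 0.05 and 3 called by DESeq2.

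Cpt1a encodes the widespread form of carnitine palmitoyltransferase 1, the enzyme of fatty acid entry into mitochondria, and lies at chr19:3322334-3385733 on the plus strand. Its normalized counts were 1074 and 1117 in TF, 620 and 655 in TE, 869 and 1105 in SF, and 2301 and 1006 in SE. TE was below all other libraries, and the first SE library was above all others while the second lay within the range of SF. Cpt1a was called higher in SE versus SF (log2 fold change 0.93, s.e. 0.332, adjusted p = 0.0482) and lower in TE versus SE (-1.35, s.e. 0.334, adjusted p = 0.0403). The latter was the only member called of the 10, where 7.21% of all tested genes were called (3.15% higher and 4.07% lower). In TE versus TF the log2 fold change was -0.73 (95% interval -1.47 to 0.02, adjusted p = 0.136), which passed with no filter (adjusted p = 0.0194), with only the groups compared (adjusted p = 0.00527) and without either SE library.

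The difference between the responses of Cpt1a was -1.66 on the log2 scale (s.e. 0.469, adjusted p = 0.044). These 3 calls of Cpt1a rested on the first SE library. Without it SE versus SF gave 0.24 (adjusted p = 0.513), TE versus SE gave -0.63 (adjusted p = 0.205) and the difference gave -0.94 (adjusted p = 0.0826). The call in SE versus SF was also lost without the first SF library (adjusted p = 0.212) and with median-ratio scaling (0.74, adjusted p = 0.101). The call in TE versus SE was lost without either TE library, and that of the difference without either TF library, either TE library or the first SF library.

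Cpt1b encodes the muscle form of the same enzyme and lies at chr15:89416405-89425863 on the minus strand. It was listed at 0 in both TF libraries and at 35.9 and 23.1 normalized counts in TE, 104.5 and 57.0 in SF, and 97.3 and 207.7 in SE. As listed, it was called at least 7.79-fold higher in TE than in TF (adjusted p = 0.00461) and at least 21.3-fold lower in TF than in SF (adjusted p = 0.00277), with a limit of 3 counts per library standing for the listed zeros. Gm44502, a read-through transcript of the neighboring choline kinase gene Chkb into Cpt1b, shares the strand, and 81.4% of the exon bases of Cpt1b lie in exons of another gene. Gm44502 had 24.52 and 18.34 estimated counts in TF and 0 in the other 6 libraries. In TF the counts of Chkb and Gm44502 were not whole but added up to 217 and 108 exactly.

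With Gm44502 added to Cpt1b, an alternative chosen after these values were seen, TF stood at 31.8 and 22.6 normalized counts and overlapped TE. The log2 fold change was then 0.17 in TE versus TF (adjusted p = 0.887) and -1.39 in TF versus SF (adjusted p = 0.193), and neither passed. The count of members called fell from 3 to 2 in TE versus TF and from 2 to 1 in TF versus SF. Which gene the shared reads of the TF libraries came from cannot be told apart, and the calls of Cpt1b against TF are uncertain. SE versus SF, where Gm44502 was at 0, gave 1.12 (95% interval -0.62 to 2.86, adjusted p = 0.261), and TE versus SE gave -2.34 (adjusted p = 0.133), which DESeq2 called (adjusted p = 0.0449). Per kilobase, Cpt1b with the read-through transcript made up 4.38% to 31.9% of the Cpt1a and Cpt1b level in each library, so Cpt1a was the more abundant form in all 8.

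Acadl encodes the long-chain acyl-CoA dehydrogenase of the mitochondrial matrix and lies at chr1:66830839-66863277 on the minus strand. Its normalized counts were 981 and 885 in TF, 1414 and 1364 in TE, 592 and 712 in SF, and 1615 and 2437 in SE. No groups overlapped, and the order of the groups was SE, TE, TF and SF. Acadl rose by 1.83 on the log2 scale from SF to SE (s.e. 0.238, adjusted p = 0.000285), 3.11-fold between means, and this call held without any one library. The log2 fold change in TE versus TF was 0.63 (95% interval 0.11 to 1.15, adjusted p = 0.0737) and missed the threshold, which it passed with no filter (adjusted p = 0.0441), with only the groups compared (adjusted p = 0.00785) and without either SE library. TF versus SF gave 0.67 (adjusted p = 0.0634) and TE versus SE gave -0.52 (adjusted p = 0.244), so no neighbors in this order passed the test. The difference between the responses was -1.20 (s.e. 0.328, adjusted p = 0.0385), and it was lost with median-ratio scaling (-1.06, adjusted p = 0.054). It was also lost without either TF library, either TE library, the first SF library or the second SE library.

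**Figure D3:**
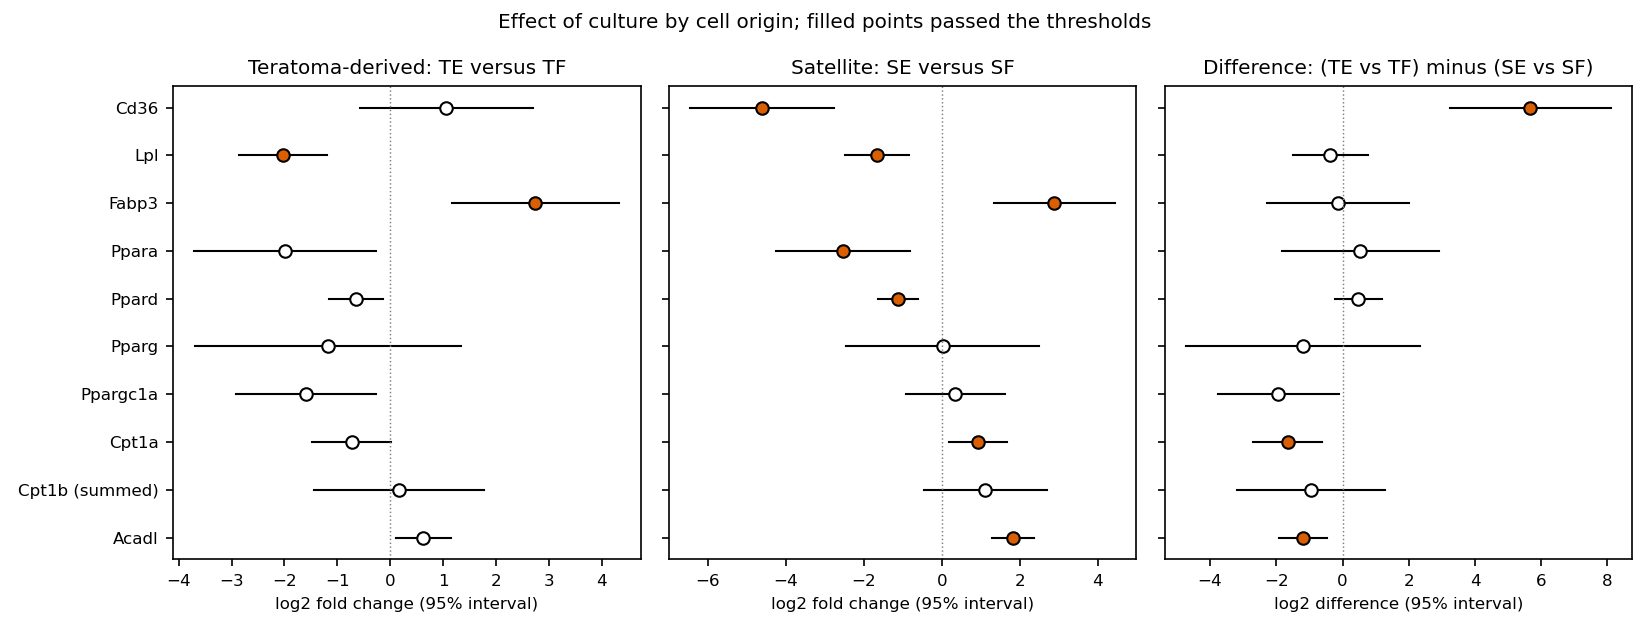
Log2 fold change of each member with expansion in teratoma-derived cells (left), in satellite cells (middle), and the difference between them (right), with 95% intervals from edgeR and filled points for calls. Cpt1b is drawn with its read-through transcript added. Cd36 lies far below 0 in satellite cells and above 0 in the difference, Lpl is below 0 and Fabp3 above 0 in both origins.

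The difference between the origins in the response to expansion was called for 4 of the 10 members, Cd36 and Cpt1b upward and Cpt1a and Acadl downward, against a background of 14.3% (4.7% higher and 9.62% lower). Of these, only that of Cd36 was held by every alternative, and the difference of Cpt1b turned from 6.91 as listed, a value with no size because TF was at 0, to -0.95 (adjusted p = 0.601) with the read-through transcript added. The calls of Cpt1a and Acadl were both absent with median-ratio scaling, which shifted the median difference of all genes by 0.14. The same scaling shifted the medians by -0.19 in SE versus SF and -0.16 in TF versus SF, on the log2 scale. Since the comparisons share libraries, their values are set side by side and no agreement between them is counted.

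Around these members, a wider list of 103 genes of fatty acid handling was counted, of which 102 were tested. Like the members, the list was chosen with earlier results of these data known, so its shares are a description and not a test. It had 37 calls in TE versus TF, 7 higher and 30 lower, which is 36.3% of the list beside 26.1% of all tested genes. In SE versus SF it had 55 calls, 30 higher and 25 lower, which is 53.9% beside 40.7%. The balance of that split turned with the scaling, to 23 higher and 28 lower with median-ratio factors, 27 and 31 with DESeq2 and 25 and 28 without Rn45s, so no direction is given for the list in satellite cells. TF versus SF called 27, of which 21 were higher in TF, and TE versus SE called 10, of which 6 were higher in TE. These are 26.5% and 9.8% of the list, near the 24.2% and 7.21% of all tested genes. The difference between origins was called for 18 genes of the list, 17.6% beside 14.3%. Its median log2 fold change was -0.46 in TE versus TF and 0.24 in SE versus SF, beside -0.18 and -0.23 over all tested genes.

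**Figure D4:**
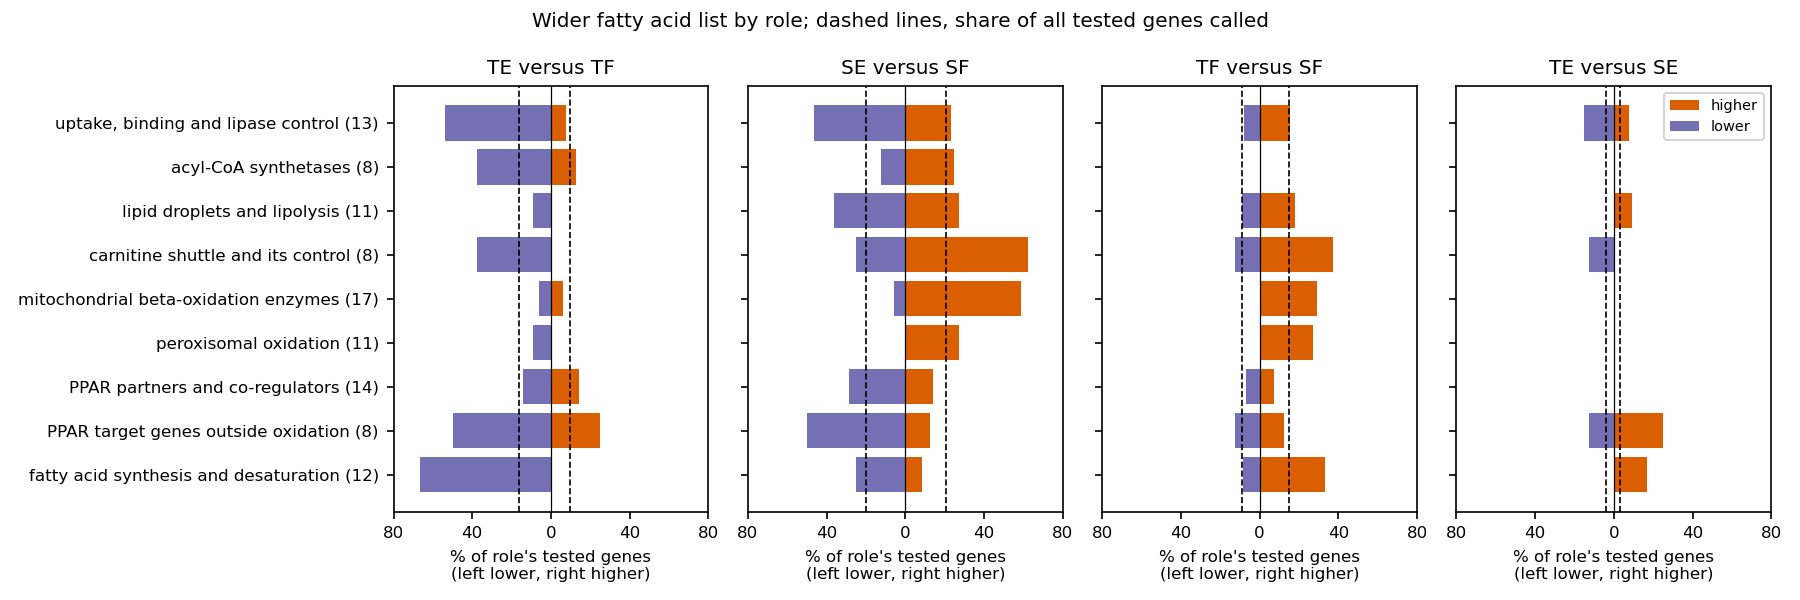
Share of tested genes in each role of the wider list (number in brackets) called higher (right of 0) or lower (left of 0), in percent, for 4 comparisons, with dashed lines at the share of all tested genes called in that direction. In TE versus TF 8 of 12 fatty acid synthesis genes were lower, and in SE versus SF 10 of 17 mitochondrial beta-oxidation genes were higher.

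Among the 13 other genes of uptake, binding and lipase control, 7 were lower and 1 higher in TE versus TF, and 6 were lower and 3 higher in SE versus SF. These are 61.5% and 69.2% of the group, beside 26.1% and 40.7% of all tested genes. Fabp4, the binding protein of fat cells and endothelium, stood at 180.5 and 73.8 normalized counts in TF and 712 and 1599 in SF, and at 0 in all 4 expanded libraries. It was at least 55.8-fold lower in TE than in TF and at least 490-fold lower in SE than in SF (adjusted p = 0.000755 and 9.84e-05 by edgeR). Gpihbp1, which anchors lipoprotein lipase on capillary endothelium, was at 0 in the expanded libraries and at 162.3 and 1.23 in TF and 173.3 and 180.2 in SF. Both genes moved with the endothelial markers given above, and the part of those cells was not tested. Cav1, a caveola protein, was called lower in both origins. Its log2 fold change was -4.08 in SE versus SF (adjusted p = 2.3e-05 by edgeR) and -3.15 in TE versus TF.

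Slc27a1, which encodes a fatty acid transport protein of muscle, fell by 2.70 in TE versus TF and by 1.20 in SE versus SF on the log2 scale, and it was lower in TE than in SE (log2 fold change -1.57, adjusted p = 0.00522). Vldlr, a receptor for lipoproteins, was higher in TE than in SE, at 1886 and 1975 normalized counts against 299 and 819 (log2 fold change 1.81, adjusted p = 0.0271). Both calls between TE and SE were lost without the second TE library.

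Of 8 genes of the carnitine shuttle and its control, 5 were higher and 2 lower in SE versus SF, 87.5% beside 40.7% of all tested genes. The count of higher genes was 3 without the second SF or the second SE library. In TE versus TF 3 were lower and none higher, 37.5% beside 26.1%, and the lower genes were 1 without the second TF or the first TE library, 2 without the first TF library and 0 without the second TE library. The difference between origins was called for 2 of the 8, 25% beside 14.3% of all tested genes. Cpt2, the partner of Cpt1 at the inner membrane, had 39.5 and 65.0 normalized counts in SF and 324.0 and 322.7 in SE, a rise of 2.81 on the log2 scale (s.e. 0.402, adjusted p = 5.0e-04). Slc22a5, the carnitine importer of the cell surface, fell by 3.27 in SE versus SF (adjusted p = 0.000324) and by 1.57 in TE versus TF (adjusted p = 0.0206). Acacb, whose product makes the malonyl-CoA that inhibits Cpt1, fell by 2.07 in SE versus SF (adjusted p = 0.00647), a call that held without any one library, and by 1.75 in TE versus TF (adjusted p = 0.0211). In TE versus TF, the call of Slc22a5 was lost without the first TF library or either TE library, and that of Acacb without the second TF or the second TE library.

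Among 17 other mitochondrial beta-oxidation genes, 10 were higher and 1 was lower in SE versus SF, while TE versus TF called 1 higher and 1 lower. These are 64.7% of the group beside 40.7% of all tested genes, and 11.8% beside 26.1%. The difference between origins itself was called for 2 of the 17, 11.8% beside 14.3%, so the counts do not show that this group responded differently in the origins. Acads, the short-chain acyl-CoA dehydrogenase, rose in both origins, by 2.11 in satellite cells (s.e. 0.291, adjusted p = 0.000398) and by 1.40 in teratoma-derived cells (s.e. 0.282, adjusted p = 0.00573) on the log2 scale, and the latter call was lost without the second TE library. Hadha, a subunit of the trifunctional protein of long-chain oxidation, stood at 1186 and 1283 normalized counts in SF and 1970 and 2008 in SE, and at 1925 to 2391 in the teratoma-derived libraries. Acadm, the medium-chain enzyme, fell by 0.89 in TE versus TF (adjusted p = 0.0308), a call that was lost without any one of the TF and TE libraries.

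In fresh cells, 5 of these 17 genes were higher in TF than in SF and 0 were lower. This is 29.4% of the group, near the 24.2% of all tested genes (15.1% higher and 9.13% lower). Echs1 was higher by 1.46 and Hadh by 1.21 on the log2 scale (adjusted p = 0.0134 and 0.00952), and both calls were lost without the first TF or the first SF library. After expansion TE versus SE called 0 of the 17 by edgeR, with 2 at an unadjusted p below 0.05 and 1 called by DESeq2. Of all tested genes, edgeR called 7.21% in that comparison. The count of 10 higher genes in SE versus SF was 6 with median-ratio scaling, 5 without the first SF library, and 6 without either TE library or without the second SE library. The first SF library also decided the 1 lower gene, Acad9, which stood at 4338 in it and at 828 in the second SF library, 529 and 686 in SE, 715 and 747 in TF and 463.5 and 572 in TE.

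**Figure D5:**
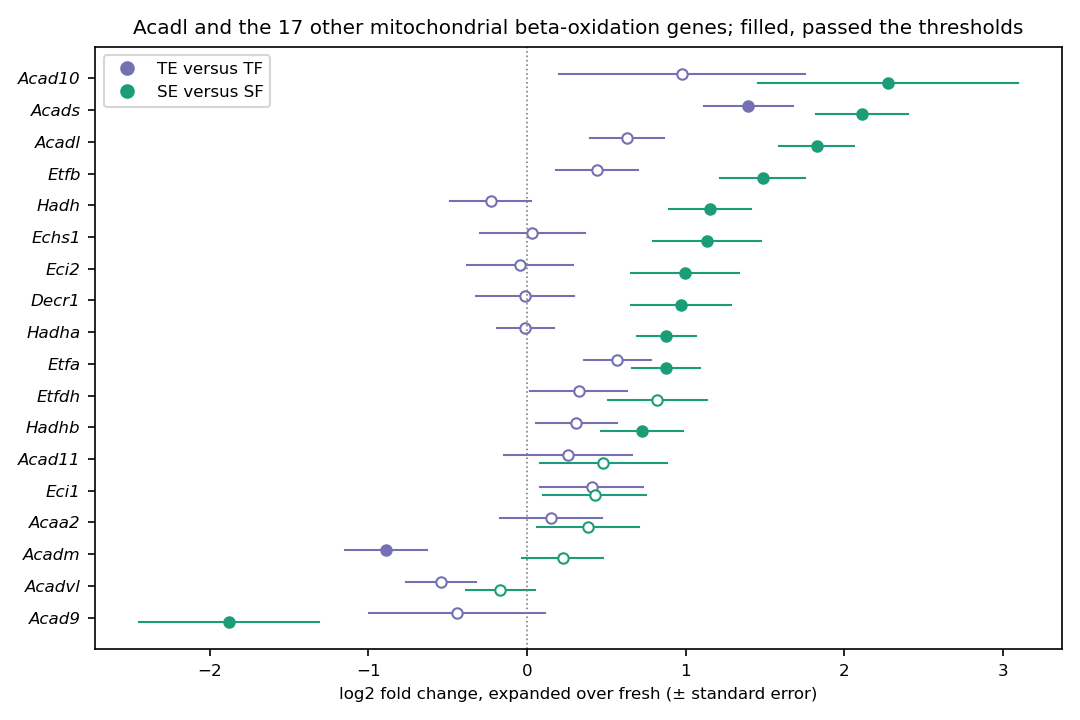
Log2 fold change with expansion (horizontal axis, ± standard error) of Acadl and 17 other mitochondrial beta-oxidation genes in teratoma-derived (purple) and satellite cells (green), with filled points for calls by edgeR. In satellite cells Acadl and 10 others were called higher and Acad9 lower, and in teratoma-derived cells Acads was called higher and Acadm lower.

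Of 12 genes of fatty acid synthesis and desaturation, 8 were lower and none higher in TE versus TF, 66.7% beside 26.1% of all tested genes. In SE versus SF 3 were lower and 1 higher, 33.3% beside 40.7%, and 5 were lower with median-ratio scaling, with DESeq2 or without Rn45s. The difference between origins was called for 3 of the 12, all downward, 25% beside 14.3% of all tested genes (9.62% lower). The fibro-adipogenic marker sums given with Lpl also fell from fresh to expanded libraries in both origins, as did the low adipocyte sums, and their part in these falls was not tested. Scd1, the main stearoyl-CoA desaturase outside the brain, fell in both origins, from 1981 and 3262 normalized counts in TF to 152.0 and 115.6 in TE and from 2789 and 3051 in SF to 120.9 and 212.8 in SE (log2 fold changes -4.24 and -3.94, adjusted p = 3.73e-05 and 3.17e-05). Scd2, a related desaturase, stood at 9511 and 11920 in TF and at 4990 and 4774 in TE. In SF it was at 2224 and 1880 and in SE at 3799 and 3698, so it was above Scd1 in TF, TE and SE. Scd2 was called lower in TE versus TF (log2 fold change -1.08) and higher in SE versus SF (1.06). Its difference between origins was -2.14 (adjusted p = 0.00109). Elovl6, an elongase, fell by 2.16 in TE versus TF (adjusted p = 0.00218). A separate role, lipid droplets and lipolysis, held 11 tested genes. In TE versus TF 1 was lower and none higher, 9.09% beside 26.1% of all tested genes. In SE versus SF 4 were lower and 3 higher, 63.6% beside 40.7%, and 5 lower and 1 higher with median-ratio scaling. Mgll, the monoglyceride lipase that completes fat breakdown, was the 1 lower gene in TE versus TF. It fell by 3.62 there and by 4.07 in SE versus SF (adjusted p = 0.000156 and 6.11e-05).

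Of 14 partners and co-regulators, 2 were higher and 2 lower in TE versus TF, and 2 were higher and 4 lower in SE versus SF. These shares, 28.6% and 42.9%, lie near the 26.1% and 40.7% of all tested genes. The 2 lower genes in TE versus TF were called in no fit that left out a TF or TE library. Ppargc1b, which encodes PGC-1β, had 198.6 and 406 normalized counts in TF, 974 and 868 in TE, 359.2 and 237.2 in SF and 1150 and 1384 in SE. It rose by 1.66 and 2.28 on the log2 scale (adjusted p = 0.00599 and 0.000681), where Ppargc1a passed in neither origin. Esrra, an orphan receptor that works with both coactivators, rose by 1.58 and 2.34 (adjusted p = 0.0221 and 0.00226), and its call in TE versus TF was lost without the second TF library or either TE library.

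Of 8 PPAR targets outside oxidation, 4 were lower and 2 higher in TE versus TF and 4 were lower and 1 higher in SE versus SF. These are 75% and 62.5% of the group, beside 26.1% and 40.7% of all tested genes. The 4 lower genes in SE versus SF were 1 without the first SF library and 2 without the first SE library. Pdk4, a kinase that spares glucose by shutting pyruvate dehydrogenase, stood at 665 and 849 normalized counts in TF, 73.4 and 148.8 in TE, 1710 and 1575 in SF and 609 and 684 in SE. It was lower in TE than in all other libraries, and TE versus SE gave a log2 fold change of -2.52 (s.e. 0.322, adjusted p = 0.00178). Ucp2, an inner membrane carrier, was higher in TE than in SE (log2 fold change 2.22, adjusted p = 0.00027) and in TF than in SF (3.03, adjusted p = 5.99e-05). Fgf21, a hormone of lipid and stress metabolism, rose from 1.30 and 19.7 in TF to 1617 and 1553 in TE and from 0 in both SF libraries to 95.8 and 405.9 in SE, at least 69.3-fold in the latter (adjusted p = 0.00076 and 0.000887).

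The genes whose pattern over the 8 libraries was most like that of a member are given as a description, by Pearson's r of log2(normalized count + 1) over 12672 genes. Sod3, an extracellular antioxidant enzyme, was nearest to Lpl (r = 0.997), and Gpr155 to Cd36 (r = 0.985). Rbm5, a splicing factor, was nearest to Fabp3 (r = 0.990). All of these points share the 8 libraries and their 4 groups, so a high r mostly restates the order of the groups.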

How the data were processed

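Per the labels, RNA of 8 samples was made into stranded total RNA libraries with a low-input SMARTer kit. The authors deposited 1 table of estimated counts per gene symbol, not normalized, and the submitters' processing notes name CASAVA, kallisto 0.44.0 and the builds GRCm38 and mm10. A program of this kind shares reads between overlapping transcripts, which bears on Cpt1b. Exactly whole numbers, zeros included, make up 74.4% to 84.4% of each library's values.

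Counts were rounded, filtered with filterByExpr (17582 of 24980 symbols kept), scaled by TMM and tested in R 4.3.3 with edgeR 4.0.16 (quasi-likelihood, 1 fit over 4 groups, no replicate term). The study's thresholds, adjusted p below 0.05 and fold change above 1.25, defined a call. Test sizes are log2 fold changes with standard errors and 95% intervals of the fit, while folds between means use normalized counts from DESeq2 1.42.0 size factors. Folds against a group with at most 3 counts in each library are lower bounds, for counting error only. Gene positions are from GENCODE M21 on GRCm38.

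The members and gene lists were chosen with earlier results of these data known. All members are named, and of each role of the wider list at most the 3 called genes with the largest change per comparison, where the mean over the libraries reached 50 normalized counts. Acad9 is among them by that rule. For likeness, the 3 genes nearest to each member were computed. Samples were grouped by title. Alternatives were median-ratio scaling, no filter, DESeq2, only the groups compared, a replicate block, edgeR's glmTreat at the fold threshold, leaving out Rn45s, leaving out each library and, added after the data were seen, Cpt1b with Gm44502 summed.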

Additional observations from a re-analysis of the deposited data

Results flagged for a closer look

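A difference in the response to expansion between teratoma-derived and satellite cells was called for 4 members, by edgeR's test of the difference itself (TE versus TF minus SE versus SF). The difference of Cd36 was 5.67 on the log2 scale, with Cd36 lower after expansion in both SE libraries and in neither TE library. Cpt1a differed by -1.66, with 1 SE library at 2301 normalized counts and the other at 1006, and this call was lost with median-ratio scaling. Acadl differed by -1.20, with higher values after expansion in both origins, of which that in TE versus TF did not pass (adjusted p = 0.0737). The call of this difference was lost with median-ratio scaling (-1.06, adjusted p = 0.054), with glmTreat and without Rn45s. Cpt1b differed by 6.91 as listed, against 2 TF libraries at 0, and by -0.95 with the read-through transcript Gm44502 added, where it was not called (adjusted p = 0.601).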

How the results depend on the processing

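Of the values of single members under the alternatives, 686 kept their direction and their side of the thresholds, 45 lost a call, 38 gained one and 21 turned in direction. No called fold change turned, except the difference of Cpt1b between origins, at -0.95 with the read-through transcript summed, where TF versus SF called 1 member. Members called in TE versus TF were 6 with no filter, with DESeq2 and with only the groups compared, and in TF versus SF 4 with no filter. TE versus SE called 2260 genes with no filter and 2163 with DESeq2, members 3 and 4, and 21 and 17 genes of the wider list, which had 5 with only the groups compared. With glmTreat, TE versus SE called 0 members (4 at an unadjusted p below 0.05, 4 called by DESeq2). The difference between origins called 2 members with median-ratio scaling, glmTreat and without Rn45s. Pparg in SE versus SF turned to -0.17 with median-ratio scaling and DESeq2 and to -0.12 without Rn45s. Causes were not tested.

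Replicate numbers were used only as names of the libraries, and the titles do not say whether same-numbered libraries are paired. Deviations of same-numbered libraries correlated at -0.03 to 0.08 between groups. A correlation over all tested genes cannot show that no pairing exists. With a replicate block, the difference between origins called 2 members, SE versus SF called 6 with Cpt1a lost, and Pparg in SE versus SF turned to -0.12.

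Leaving out 1 library at a time gave these ranges of calls. For all genes they were 2739 to 5439 in TE versus TF, 2639 to 5072 in TF versus SF, 653 to 1698 in TE versus SE and 1467 to 2996 for the difference, lowest without a TE library or, in TF versus SF, without the first TF library. For members they were 3 to 6 in TE versus TF, 4 to 7 in SE versus SF (4 without the first SF library), 1 to 4 in TF versus SF (1 without the second TF library), 0 to 3 in TE versus SE and 1 to 4 for the difference. For the wider list they were 22 to 43 in TE versus TF, 3 to 20 in TE versus SE and 7 to 22 for the difference. Uncalled members turned in these ranges: in SE versus SF Pparg from -0.68 to 0.51 and Ppargc1a from -0.13 to 1.10; in TF versus SF Fabp3 from -2.48 to 0.0082 and Ppargc1a from -0.67 to 0.54; in TE versus SE Lpl from -0.23 to 1.11, Ppard from -0.39 to 0.063 and Pparg from -2.06 to 0.085; in the difference Fabp3 from -0.99 to 1.5, Lpl from -0.88 to 0.45 and Ppara from -0.19 to 1.03. With 2 libraries per group, changes of low genes such as Pparg and Ppara were poorly detectable.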
